A study of Mus musculus with 2 samples.

Results

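A set of 10 genes from 2 receptor families was followed across the immune cells of the adult mouse liver: the Fc gamma receptor genes Fcgr1, Fcgr2b, Fcgr3 and Fcgr4, and the Cd300 genes Cd300a, Cd300c, Cd300e, Cd300ld, Cd300lf and Cd300lg. They were taken by symbol, and all 10 were found among the 27998 genes listed in both libraries. The study sorted CD45+ lineage-negative liver cells from C57BL/6 mice of 7 to 10 weeks through 2 gates and sequenced each in droplets with unique molecular identifiers (UMIs), which count RNA molecules rather than reads. The LSM gate required surface Sca-1 together with Mac-1, and the other gate required CD122 together with CD49a. Each gate is 1 library from wild-type mice, the labels do not say how many mice went into it, and no treatment or genotype separates the gates. No test across samples was therefore possible, and every interval below is an exact 95% interval for counting error alone.

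Fc gamma receptors bind the constant part of immunoglobulin G. The activating members signal through the common gamma chain, encoded by Fcer1g, whose immunoreceptor tyrosine-based activation motif recruits the kinase Syk, whereas Fcgr2b carries an inhibitory motif of its own that recruits the phosphatase SHIP1, encoded by Inpp5d. Cd300 receptors bind lipids and related ligands on cell surfaces and are split in the same manner: Cd300a and Cd300lf carry inhibitory motifs and signal through phosphatases such as SHP-1, encoded by Ptpn6, while the products of Cd300e, Cd300c and Cd300ld have short tails and pair with adaptors such as DAP12, encoded by Tyrobp, or the gamma chain. Cd300lg is known from endothelium and was placed in neither group here.

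Cells with 500 or more detected genes were kept, 3074 in the LSM library (median 5100.5 UMIs) and 1257 in the CD122+CD49a+ library (median 1461 UMIs). A cell was given the class whose marker genes it held in the largest share, with a UMI of at least 2 of them. In the LSM library this gave 351 nonclassical monocyte-like cells, 49 Kupffer-like cells, 733 Cd209a dendritic-like cells, 207 conventional type 1 dendritic (cDC1)-like cells, 186 Ccr7 mature dendritic-like cells, 213 plasmacytoid dendritic-like cells, 119 basophil-like cells, 536 lymphoid-primed progenitor-like cells and 53 stem or multipotent progenitor-like cells. In the CD122+CD49a+ library 721 cells were T or innate lymphocyte-like, and 44 nonclassical monocyte-like, 113 Cd209a dendritic-like, 126 cDC1-like and 10 plasmacytoid-like cells remained for comparison, with no basophil. The "-like" is left out below. No cell was of the neutrophil class in the LSM library. A class of 53 LSM cells rested on Ly6c2 and Ccr2, with Vcan at 0 and no leading gene above 3.81-fold. It is called the Ly6c2 Ccr2 cells rather than classical monocytes. The 29 classical monocyte-like cells of the CD122+CD49a+ library keep that name as a label only. Their leading genes, Fn1 and F13a1, were among the markers that set the class. Ccr2 was in 93.1% of them, Fn1 in 48.3%, F13a1 in 37.9% and Vcan in 3.45%. Chil3 was at 0, and 21 of the 29 held only 2 markers. Among the 15 macrophage-class cells of the CD122+CD49a+ library the Kupffer markers Clec4f, Vsig4, Timd4 and Cd5l were at 0, so they are called C1q macrophages. The 49 LSM Kupffer cells also rested mainly on C1qa, C1qb and C1qc, in 95.9% to 98% of them. Clec4f was in 26.5%, Cd5l in 18.4%, and Vsig4 and Timd4 in 14.3% each. That class may therefore hold other C1q macrophages as well. Of the 733 Cd209a dendritic cells, 195 were within 1 marker of another class. For 139 of them that class was the one of the Ly6c2 Ccr2 cells, set by the classical monocyte marker list.

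On build GRCm38, Fcgr2b (chr1:170958617-170976547, minus strand), Fcgr4 (chr1:171018920-171029761, plus strand) and Fcgr3 (chr1:171051174-171064935, minus strand) lie together on chromosome 1, and Fcgr1 lies on chromosome 3 (chr3:96282909-96293969, minus strand). Cd300a (chr11:114890041-114904654, plus strand), Cd300c (chr11:114956116-114969157), Cd300ld (chr11:114982274-114989922), Cd300e (chr11:115051917-115062177) and Cd300lf (chr11:115116214-115133992), the last 4 on the minus strand, form 1 cluster on chromosome 11. Cd300lg (chr11:102041509-102055620, plus strand) lies apart on the same chromosome. An exon of the antisense gene Gm38204 overlaps an exon of Fcgr2b. The sources used here do not say whether the counting used strand, so reads of that pair may not be told apart. Cd300ld has close paralogs, and its counts are uncertain to the extent that the counting split reads between them.

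The sequences just upstream of the RefSeq start of 4 genes are shown because these 4 were the most unevenly spread activating receptors, Fcgr4, Cd300e and Cd300ld toward monocytes and Cd300c toward plasmacytoid cells. They come from RefSeq promoters on GRCm38.p6, at chr1:171018800-171018919 (plus strand), chr11:115062178-115062289, chr11:114989923-114990042 and chr11:114960508-114960627 (each minus strand), cut so as to hold no annotated exon and ending 6, 138, 36 and 0 bases before the RefSeq start. That of Cd300c lies inside the gene span given above, whose annotated 5′ end is further upstream than the RefSeq start. Capitals mark a match to GAGGAA, a core of PU.1 sites, on either strand in Fcgr4 and Cd300ld, and a match to CAGGTG, an E-box of E proteins, on either strand in Cd300c.
Fcgr4: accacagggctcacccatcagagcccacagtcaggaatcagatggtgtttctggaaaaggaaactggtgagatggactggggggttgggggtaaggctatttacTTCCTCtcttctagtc
Cd300e: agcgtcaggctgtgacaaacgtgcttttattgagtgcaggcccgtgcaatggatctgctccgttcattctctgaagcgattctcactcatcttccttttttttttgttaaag
Cd300ld: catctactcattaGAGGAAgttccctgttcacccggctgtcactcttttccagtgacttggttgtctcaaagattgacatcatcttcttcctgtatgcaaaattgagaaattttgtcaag
Cd300c: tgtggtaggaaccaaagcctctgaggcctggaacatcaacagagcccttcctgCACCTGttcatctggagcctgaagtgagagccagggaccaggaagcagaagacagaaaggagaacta
In the 250 bases before the RefSeq start, matched for 9 of the 10 genes, GAGGAA was present in 6 (Fcgr1, Fcgr3, Fcgr4, Cd300ld, Cd300a and Cd300lf), and in 23.1% of 27025 promoters of all genes. CAGGTG was present in Cd300c alone of the 9 and in 17.1% of all promoters. The composite of ETS and IRF factors, GGAA and GAAA with 2 bases of any kind between them, was present in Fcgr2b alone and in 2.38% of all, and AAAGGTCA, the element of Nr4a factors, in none of the 9 and in 1.31% of all. These are matches of letters, both strands searched, and not sites.

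The activating Fc gamma receptors differed from each other in the classes where they were highest. Levels are given in CPM, the gene's UMIs over all UMIs of the class on a common scale, and they compare classes within 1 gene. Fcgr1, the high-affinity receptor, reached 230 CPM (160 to 322) in Kupffer cells of the LSM library, against 21.7 (13.6 to 32.8) in nonclassical monocytes and 21.6 (17.5 to 26.5) in Cd209a dendritic cells. Those latter levels did not differ beyond counting error, and the many Cd209a dendritic cells held 51.1% of the 186 Fcgr1 UMIs. Basophils held no Fcgr1 UMI (up to 15.2 CPM).

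Fcgr3, a low-affinity activating receptor, stood at 379 CPM (287 to 493) in Kupffer cells, 251 (192 to 323) in basophils and 118 (98.1 to 141) in nonclassical monocytes. Each of these steps exceeded counting error. Cd209a dendritic cells held 12.8 CPM (9.64 to 16.6), and the 207 cDC1 held none (up to 2.17 CPM). In cells thinned to 1500 UMIs, Fcgr3 was detected in 54.8% of Kupffer cells (38.7 to 70.2), 30.6% of basophils (21.7 to 40.7) and 16% of nonclassical monocytes (12.2 to 20.4). None of the 533 thinned lymphoid-primed progenitors held a UMI, which allows a share of up to 0.563%. The amount of free RNA in the droplets was not estimated. The unthinned shares were 71.4%, 38.7%, 25.9% and 0.746%, at median depths of 2305, 1897, 2440 and 4954 UMIs.

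Fcgr4, the remaining activating receptor of the family, was highest in nonclassical monocytes at 292 CPM (260 to 327), and the 224 CPM (154 to 314) of Kupffer cells did not differ from it beyond counting error. Cd209a dendritic cells held 5.92 CPM (3.87 to 8.68) and cDC1 1.76 (0.363 to 5.15). Basophils, high in Fcgr3, held no Fcgr4 UMI (up to 15.2 CPM). Of the 385 Fcgr4 UMIs in LSM cells, 76.9% lay in nonclassical monocytes, which were 11.4% of the cells. In the CD122+CD49a+ library Fcgr4 was again highest in nonclassical monocytes, at 413 CPM (274 to 597), and stood at 44.6 (23 to 77.9) in Cd209a dendritic cells and 4.43 (0.536 to 16) in cDC1.

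**Figure D1:**
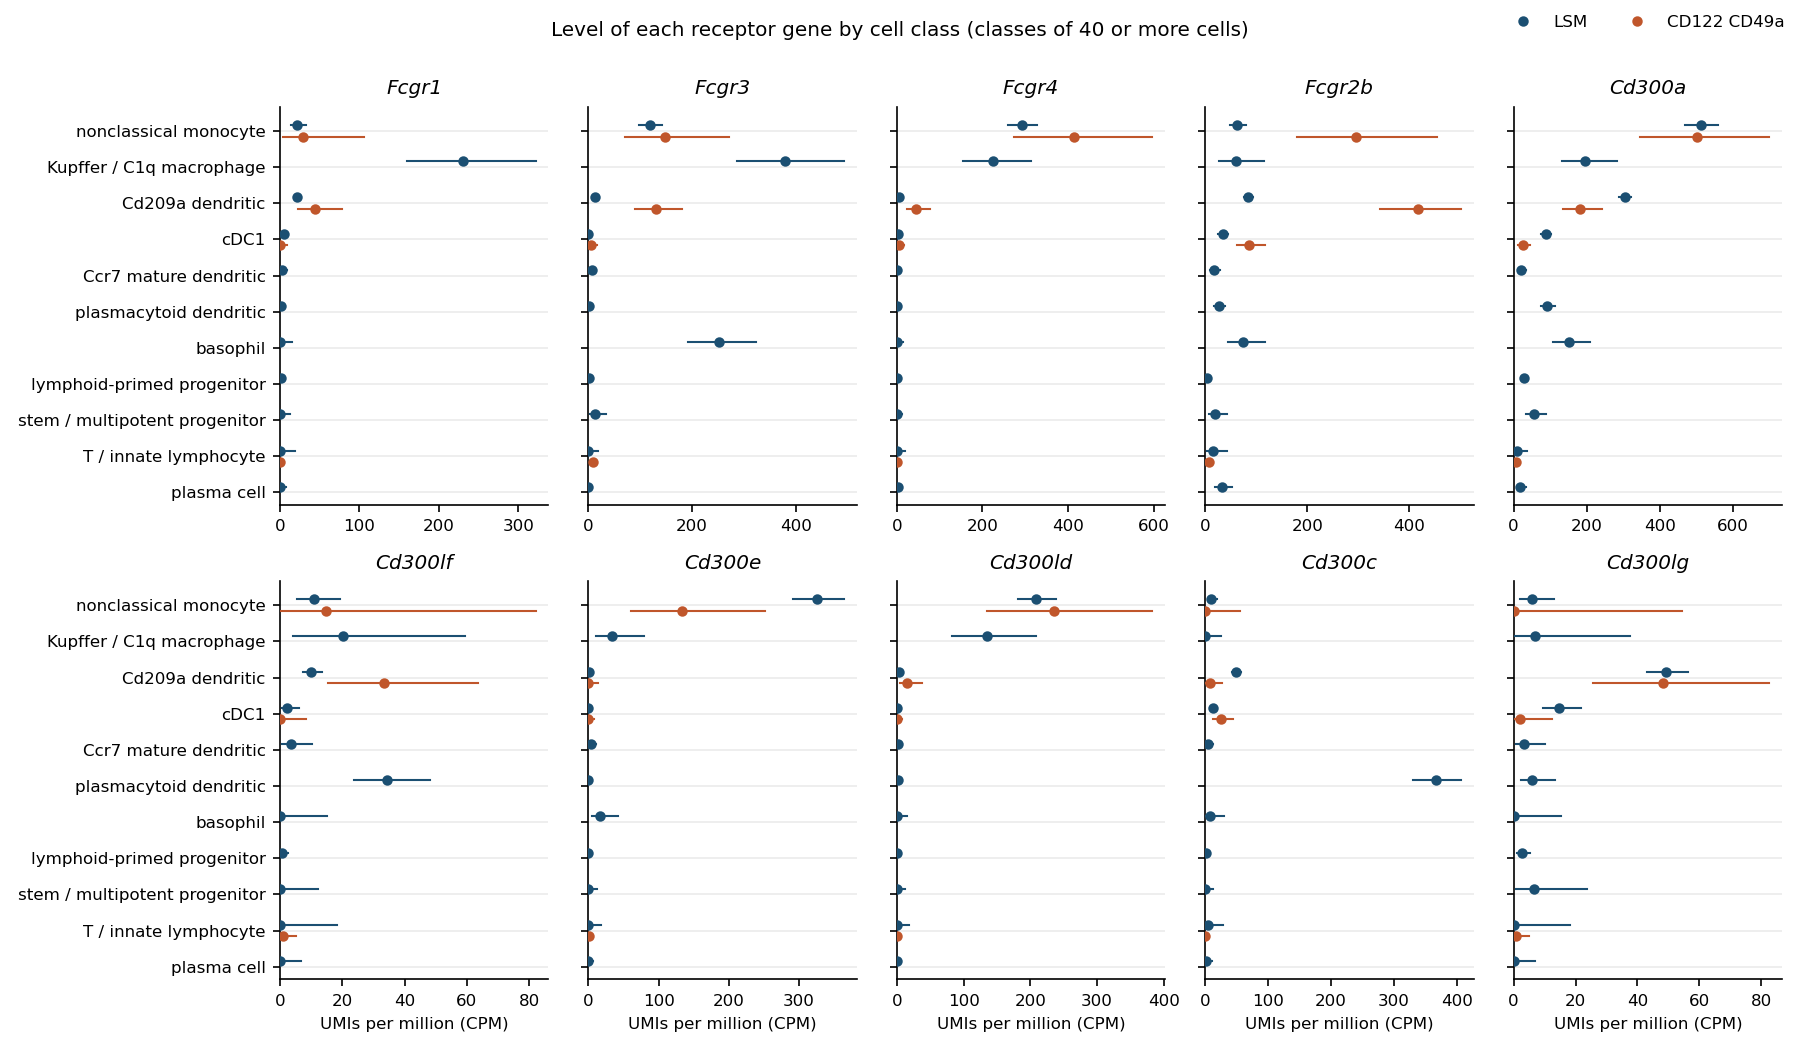
Level of each of the 10 genes (CPM, linear axes from 0, a separate scale per gene) in each class of 40 or more cells, leaving out the Ly6c2 Ccr2 cells. Points are the values of the LSM and CD122+CD49a+ libraries and lines their exact 95% Poisson intervals. Cd300e, Cd300ld and Fcgr4 are highest in nonclassical monocytes (326, 208 and 292 CPM in the LSM library). Kupffer cells lie within counting error of them for Cd300ld (135) and Fcgr4 (224). Fcgr3 is highest in Kupffer cells (379), with basophils next (251), and Cd300c peaks in plasmacytoid dendritic cells (367).

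The inhibitory Fcgr2b was spread more evenly. In the LSM library it stood at 84.3 CPM (75.9 to 93.3) in Cd209a dendritic cells, 74.1 (43.9 to 117) in basophils, 62.1 (47.7 to 79.5) in nonclassical monocytes and 61 (27.9 to 116) in Kupffer cells. No step from one to the next exceeded counting error, but nonclassical monocytes over Cd209a dendritic cells did, at 0.737 (0.555 to 0.965). Lower levels were found in cDC1 at 34 CPM (25.9 to 44), plasma cells at 33.5 (19.8 to 52.9), plasmacytoid dendritic cells at 26.4 (17.2 to 38.7) and Ccr7 mature dendritic cells at 17.5 (9.81 to 28.9). Lymphoid-primed progenitors held 4.05 CPM (2.09 to 7.07), and the few stem or multipotent progenitors 19.7 (7.23 to 42.9).

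As a share of all Fc gamma receptor UMIs of a class, Fcgr2b was higher in dendritic cells of the LSM library than in its nonclassical monocytes, Kupffer cells and basophils. It made up 6.82% (3.16 to 12.5) of these UMIs in Kupffer cells, 12.6% (9.8 to 15.8) in nonclassical monocytes and 22.8% (14.1 to 33.6) in basophils of the LSM library. In Cd209a dendritic cells the share was 67.6% (63.5 to 71.5), in cDC1 82.9% (72 to 90.8), and in plasmacytoid dendritic cells 89.7% (72.6 to 97.8) of only 29 UMIs. The intervals of these dendritic classes did not overlap those of the other 3. The Ly6c2 Ccr2 cells lay between, at 48.8% (33.3 to 64.5) of 43 UMIs, with an interval that overlapped that of Cd209a dendritic cells. In the CD122+CD49a+ library the shares were 65.5% (57.9 to 72.6) in Cd209a dendritic cells and 90.7% (77.9 to 97.4) in cDC1, within counting error of the LSM values. Other phagocytes of that library overlapped its Cd209a dendritic cells, the C1q macrophages at 53.5% (37.7 to 68.8) and the classical monocytes at 66.7% (49 to 81.4). The nonclassical monocytes of that library gave 33.3% (21.7 to 46.7) of 60 UMIs, with an interval above that of the LSM nonclassical monocytes. Their share was 68.8% in the 10 cells of 1000 or more genes, and 50% in the 19 left after thinning.

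**Figure D2:**
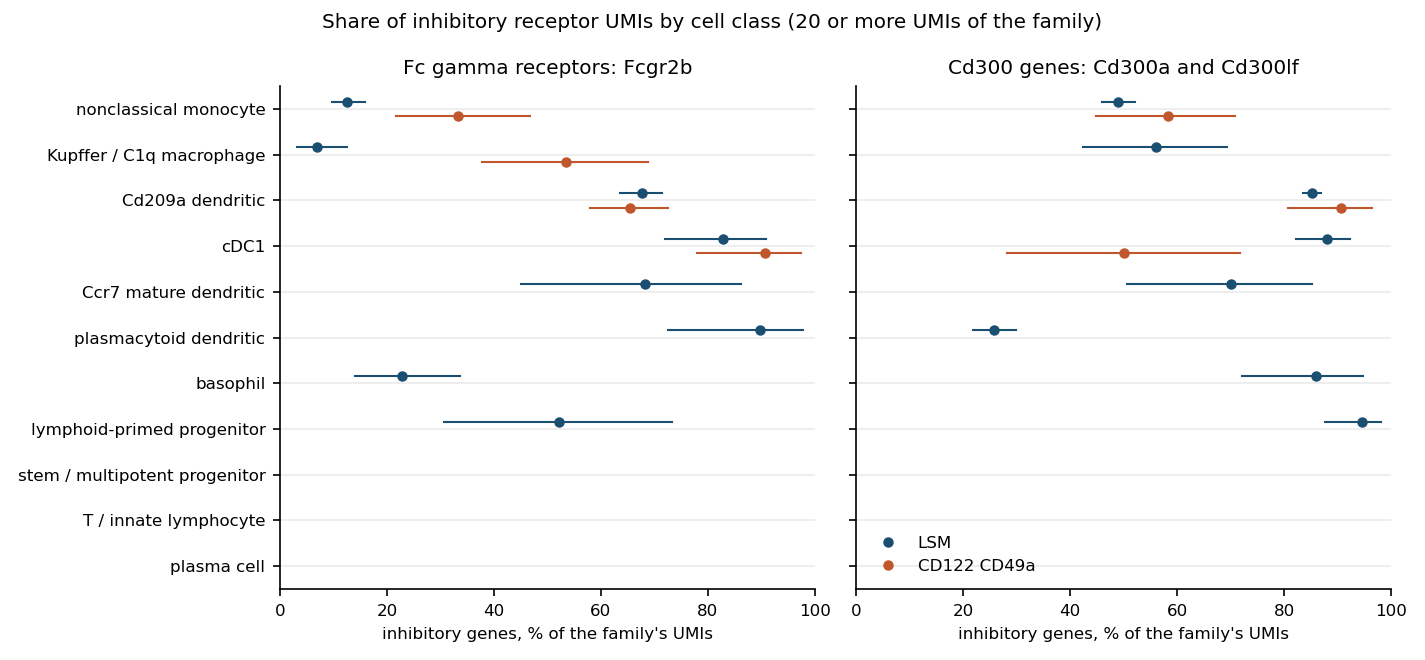
Inhibitory genes as a percentage of a family's UMIs by class, Fcgr2b of the 4 Fc gamma receptor genes on the left and Cd300a with Cd300lf of 5 Cd300 genes on the right. Points are libraries and lines exact 95% binomial intervals, for classes with 20 or more UMIs of the family, leaving out the Ly6c2 Ccr2 cells and classical monocytes. On the left LSM nonclassical monocytes (12.6%) and Cd209a dendritic cells (67.6%) lie far apart, and on the right plasmacytoid dendritic cells (25.7%) lie below every other LSM class drawn.

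Among the activating Cd300 genes, Cd300e was found mainly in nonclassical monocytes of the LSM library, where it reached 326 CPM (292 to 364) and where 93% of its 356 UMIs lay. Kupffer cells held 33.9 CPM (11 to 79), basophils 16.5 (4.49 to 42.2) and Cd209a dendritic cells 1.14 (0.37 to 2.66). Cd300e was at 0 in cDC1, plasmacytoid cells and both progenitor classes. In the CD122+CD49a+ library it was found at 133 CPM (60.7 to 252) in nonclassical monocytes and at 0 in Cd209a dendritic cells (up to 13.7 CPM).

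Cd300ld followed the same classes with a larger Kupffer part. It stood at 208 CPM (181 to 238) in nonclassical monocytes and 135 (82.8 to 209) in Kupffer cells of the LSM library, a step within counting error, and at 3.42 (1.91 to 5.64) in Cd209a dendritic cells. The CD122+CD49a+ nonclassical monocytes held 236 CPM (135 to 383).

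Cd300c was the plasmacytoid member. It reached 367 CPM (330 to 406) in plasmacytoid dendritic cells of the LSM library, 49.4 (43.1 to 56.5) in Cd209a dendritic cells and 12.3 (7.63 to 18.8) in cDC1. Plasmacytoid cells were 6.93% of LSM cells and held 51.6% of the 700 Cd300c UMIs. In cells thinned to 1500 UMIs, 40.8% of plasmacytoid cells (34.2 to 47.8) had a Cd300c UMI, against 6.63% of Cd209a dendritic cells (4.93 to 8.69) and 0 of 533 lymphoid-primed progenitors. Unthinned, the shares were 64.8%, 18.4% and 0.56%. The 10 plasmacytoid cells of the CD122+CD49a+ library held 8 Cd300c UMIs, 507 CPM (219 to 1000).

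The inhibitory Cd300a was the most widely detected of the 10 genes, with a UMI in 1270 of the LSM cells. Its level stepped down beyond counting error from nonclassical monocytes, 513 CPM (470 to 559), to Cd209a dendritic cells, 304 (288 to 321), and again to Kupffer cells, 196 (132 to 282). Basophils held 152 CPM (107 to 210), plasmacytoid cells 92.4 (74.4 to 113) and cDC1 88.1 (74.5 to 103). It was the member with most UMIs in both progenitor classes, at 55.8 CPM (32.5 to 89.3) in stem or multipotent and 28.3 (22.6 to 35.1) in lymphoid-primed progenitors. Cd300lf, the other inhibitory gene, was sparse. It was at 34.5 CPM (23.9 to 48.2) in LSM plasmacytoid cells, not beyond counting error of the 20.3 (4.19 to 59.4) of Kupffer cells, and at 10.8 (5.41 to 19.4) in nonclassical monocytes. In the CD122+CD49a+ library it was at 33.4 CPM (15.3 to 63.5) in Cd209a dendritic cells and at 0 in the 10 plasmacytoid cells (up to 234).

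Together, the inhibitory Cd300a and Cd300lf gave 85.3% (83.5 to 87) of the UMIs of the 5 paired Cd300 genes in Cd209a dendritic cells, 88% (82.2 to 92.4) in cDC1 and 86% (72.1 to 94.7) in basophils of the LSM library. The share was 49% (46 to 52.1) in nonclassical monocytes, 56.1% (42.4 to 69.3) in Kupffer cells and 25.7% (21.8 to 29.8) in plasmacytoid cells. Basophils and plasmacytoid cells therefore ranked differently in the 2 families: basophils were low in the inhibitory share of Fc gamma receptors and high in that of Cd300 genes, and plasmacytoid cells the reverse. In cDC1 of the CD122+CD49a+ library the Cd300 share was 50% (28.2 to 71.8) of 22 UMIs, with an interval below that of the LSM cDC1. These shares hold for the 5 genes only and depend on that choice. AF251705, Cd300lb and Cd300lh, described below, were left out. In LSM nonclassical monocytes AF251705 stood above each of the 5.

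Cd300lg was found mainly in Cd209a dendritic cells. It stood at 49.4 CPM (43.1 to 56.5) in Cd209a dendritic cells of the LSM library and 48.3 (25.7 to 82.6) in those of the CD122+CD49a+ library, and 68% of its 319 LSM UMIs lay in that class. LSM cDC1 held 14.7 CPM (9.5 to 21.7). The level did not differ beyond counting error from the 27 CPM (12.4 to 51.3) of the Ly6c2 Ccr2 cells in the LSM library, or from the 52.4 CPM (10.8 to 153; 3 UMIs) of the classical monocytes in the other. Cd300lg is known from endothelium, so endothelial markers were summed beside it: in LSM Cd209a dendritic cells 4 of 6 were detected, with 11.8 CPM (8.85 to 15.5) in all and Stab2 and Ptprb at 0. The sum was 196 CPM (180 to 212) in lymphoid-primed progenitors, where Cd300lg was 2.7 CPM (1.16 to 5.31), and over the LSM classes of 49 or more cells it ranged from 0 to 196 CPM. Egfl7, among these 6 markers, was itself a leading gene of those progenitors, at 14.7-fold over other cells. The source of the Cd300lg UMIs was not tested. After thinning, Cd300a was detected in 52.5% (39.1 to 65.7) of the 59 Cd209a dendritic cells with a Cd300lg UMI and in 32.5% (28.9 to 36.2) of the 665 without. This was the pair of genes, of 17 pairings examined within a class, whose shares lay furthest apart, and the 2 intervals did not overlap.

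The 195 Cd209a dendritic cells within 1 marker of another class differed from the other 538 in some members. Fcgr2b was at 57.4 CPM (44.7 to 72.7) in them and 94.4 (84 to 106) in the rest, and Cd300c at 70.8 (56.5 to 87.5) and 41.4 (34.6 to 49.1). Cd300a, at 296 CPM (266 to 328) and 307 (288 to 327), and Cd300lg, at 49.1 (37.4 to 63.4) and 49.6 (42.1 to 57.9), did not differ beyond counting error.

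Set side by side in the LSM library, nonclassical monocytes and Cd209a dendritic cells differed in 6 of the 10 genes by 2-fold or more. In the monocytes 4 were higher, where 16.3% of 8475 tested genes were: Cd300e 287-fold (122 to 888), Cd300ld 60.9-fold (36.1 to 111), Fcgr4 49.3-fold (33 to 76.7) and Fcgr3 9.28-fold (6.7 to 13). The 2 lower genes, against 9.45% of genes, were Cd300c at a ratio of 0.199 (0.0943 to 0.374) and Cd300lg at 0.12 (0.0434 to 0.265). The inhibitory genes differed by less than 2-fold: Cd300a was higher in the monocytes at 1.69 (1.52 to 1.87), Fcgr2b lower at 0.737 (0.555 to 0.965), and Cd300lf at 1.08 (0.504 to 2.13). The median log2 ratio was 0.43 over the 10 members and 0.17 over all genes tested. Under TMM normalisation, which rescales by the bulk of genes, log2 ratios in this comparison fell by 0.32, Cd300lf stood at -0.21 and no call was lost.

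In the CD122+CD49a+ library the same ratios were 9.26 (4.56 to 20) for Fcgr4, 15.9 (5.12 to 65.2) for Cd300ld and at least 11.9 for Cd300e, with a floor of 3 UMIs in the Cd209a dendritic cells. The Fcgr4 log2 ratio there was 3.21, and 0.71 with only cells of 1000 or more genes kept, which left 10 monocytes. Members higher there numbered 3, and 1 at 1000 or more genes, with 3 markers required or thinned. Only 19 monocytes were left after thinning, and none held a Cd300e UMI. Fcgr3, 9.28-fold higher in LSM monocytes, was at 1.13 (0.501 to 2.34) in this library, where Cd209a dendritic cells held 130 CPM (90.6 to 181).

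**Figure D3:**
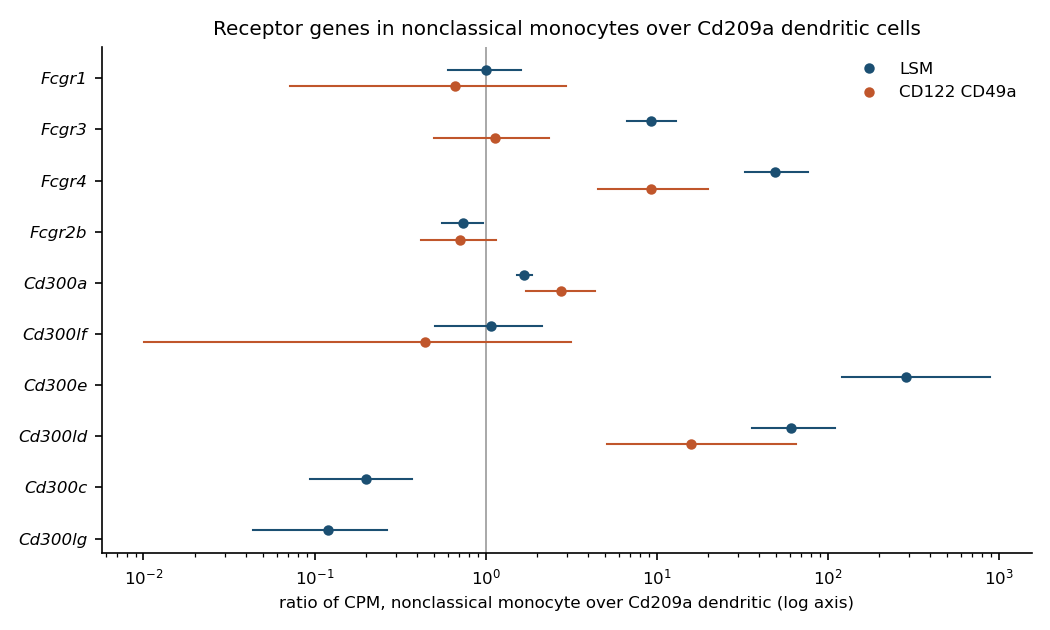
Ratio of CPM in nonclassical monocytes over Cd209a dendritic cells for each gene (log axis, line at 1) in the LSM and CD122+CD49a+ libraries, with exact 95% intervals. Genes at 0 in a class are not drawn for that library. Activating Fcgr4, Cd300ld and, in the LSM library, Cd300e (287) lie far to the right. Inhibitory Fcgr2b lies below 1 in the LSM library (0.737). In the CD122+CD49a+ library it is at 0.708, with an interval that reaches past 1 (0.417 to 1.15).

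Against cDC1, the monocytes were higher in 6 of 9 tested members, where 21.9% of genes were: Fcgr1 was 4.11-fold (1.82 to 10.1), Fcgr4 166-fold (56.2 to 808) and Cd300a 5.82-fold (4.85 to 7.03) higher, and Cd300e, Cd300ld and Fcgr3, all at 0 in cDC1, at least 185-fold, 118-fold and 67.2-fold. Fcgr2b was 1.82-fold higher (1.26 to 2.65). Cd300lg alone was lower by 2-fold, with a ratio of 0.403 whose interval reached past 1 (0.135 to 1.01), against 10.6% of genes.

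Plasmacytoid dendritic cells were higher than Cd209a dendritic cells in 2 of 8 tested members, Cd300c 7.41-fold (6.25 to 8.82) and Cd300lf 3.44-fold (2.13 to 5.51), where 16.1% of genes were. The 6 lower members, where 9.3% of genes were lower, were Cd300lg at 0.123 (0.0447 to 0.273), Cd300a at 0.304 (0.243 to 0.376), Fcgr2b at 0.313 (0.202 to 0.466), and Fcgr1, Fcgr3 and Fcgr4 with 1 UMI each in plasmacytoid cells. Fcgr4's interval reached past 1 (0.00418 to 1.04). With doublet removal, which also took every cell with markers of 2 classes and left 39 of the 213 plasmacytoid cells, 3 members were lower. Against cDC1 they were higher in Cd300c, 29.7-fold (19.2 to 48.6), and Cd300lf, 14.7-fold (5.24 to 57), 2 of 5 tested, with 18.9% of genes higher. Cd300lg was lower at 0.415 (0.139 to 1.04), with 7.42% of genes lower, and Cd300a was at 1.05 (0.8 to 1.37), turning to a log2 ratio of -0.31 under TMM. With doublet removal, or thinned, 1 member was higher and 0 lower, and with 3 markers required 0 were lower.

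Basophils exceeded nonclassical monocytes in 1 of 7 tested members, Fcgr3 at 2.12-fold (1.53 to 2.91), where 9.99% of genes were higher. With 3 markers required for a class that log2 ratio was 0.95, below 2-fold. They were lower in 4, against 31.8% of genes: Cd300a at 0.297 (0.207 to 0.415), Cd300e at 0.0505 (0.0137 to 0.13), and Fcgr4 and Cd300ld, at 0 in basophils, at least 23.6-fold and 16.8-fold lower. Fcgr2b was at 1.19 (0.665 to 2.04). Fcer1a, the alpha chain of the receptor for immunoglobulin E, which shares the gamma chain with Fcgr3, stood at 441 CPM (361 to 532) in basophils and at 0 in nonclassical monocytes.

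Progenitors held little of either family. Lymphoid-primed progenitors were lower than nonclassical monocytes in all 7 tested members, where 14.2% of genes were lower and 22.8% higher, and stem or multipotent progenitors were lower in 7 of 7, where 23.4% were lower and 13.8% higher. No tested member was higher in either progenitor class. Cd300a was 18.1-fold (14.4 to 23.1) and 9.19-fold (5.68 to 15.9) lower. After thinning, any of the 10 genes was detected in 4.13% (2.6 to 6.18) of lymphoid-primed progenitors, 84.6% (80.2 to 88.4) of nonclassical monocytes and 53.7% (50 to 57.4) of Cd209a dendritic cells.

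Ccr7 mature dendritic cells, a comparison chosen after the levels were seen, held less than Cd209a dendritic cells in 7 of 8 tested members, where 20.2% of genes were lower, and more in none, where 11.6% were higher. Of these, the intervals of Fcgr3 at 0.458 (0.143 to 1.13) and Cd300lf at 0.35 (0.0695 to 1.09) reached past 1, and 4 members were lower after thinning. Cd300a was at 0.0691 (0.0409 to 0.11), Cd300c at 0.0945 (0.0255 to 0.246) and Fcgr2b at 0.208 (0.115 to 0.347). Fcer1g stood at 883 CPM (821 to 948) in the Ccr7 cells and 2333 (2288 to 2379) in the Cd209a cells. Of 9 tested other paired receptors of myeloid cells, 6 were lower by 2-fold or more (Pilrb1, Pilrb2, Sirpb1c, Clec4a2, Clec12a and Lair1) and 0 higher. Their median log2 ratio was -1.34, against -0.19 over all genes tested. The inhibitory receptor Pirb went the other way by less than 2-fold, at 168 CPM (142 to 198) against 108 (98.5 to 118).

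Partner genes were read in the same classes. Fcer1g stood at 5380 CPM (5238 to 5525) in nonclassical monocytes, 3489 (3194 to 3803) in Kupffer cells, 3220 (2999 to 3454) in basophils, 585 (549 to 622) in cDC1 and 144 (130 to 158) in lymphoid-primed progenitors. Tyrobp was 5279 CPM (5136 to 5424) in plasmacytoid cells, where Fcer1g was 1712 (1631 to 1796). Of 12 genes of activating adaptors and kinases, 6 were 2-fold or more higher in nonclassical monocytes than in Cd209a dendritic cells (among them Fcer1g, Hcst, Syk and Plcg2) and 1 was lower (Lat2). Their median log2 ratio was 0.97, against 0.17 over all genes tested, of which 16.3% were higher and 9.45% lower. Of 7 genes of phosphatases and partners of inhibitory receptors, 4 were higher (Inpp5d, Ptpn11, Dok1 and Dok3) and 1 lower (Dok2), with a median of 1.11.

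The 3 other Cd300 genes with a row were all higher in nonclassical monocytes than in Cd209a dendritic cells, as were 16.3% of all genes tested. AF251705, Cd300c2 by its gene identifier, was at 873 CPM (816 to 932) against 225 (211 to 240). Cd300lb, an activating member, was at 73 CPM (57.3 to 91.6) against 12.3 (9.24 to 16.1), and Cd300lh was at 20.7 (12.8 to 31.7) against 0.456 (0.0552 to 1.65). Among 11 other paired receptors of myeloid cells, 6 were higher in the monocytes (Pilra, Pilrb1, Pilrb2, Sirpa, Sirpb1c and Lair1) and Clec4a2 was lower, against the same 16.3% and 9.45% of all genes. Pilra, an inhibitory receptor, was at 238 CPM (209 to 270) against 3.64 (2.08 to 5.92).

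The genes whose log2 level followed a member most closely over the 11 LSM classes of 50 or more cells were taken from 7676 genes, by Pearson correlation, as a description; all classes come from 1 library. Lilra5 (0.99), Pilrb2 and Cyth3 were nearest to Cd300e. Klra2 and Trem3 (both 0.98) and Pla2g7 were nearest to Fcgr4, and Pla2g7 and Trem3 (both 0.99) with Scnn1a were nearest to Cd300ld. Emilin2 (0.94), Igsf6 and Gm26532 were nearest to Fcgr3, and Plxdc1 (0.92), Lefty1 and Gapt to Cd300c. Nfam1 (0.96) led for Cd300a, Gapt (0.94) for Cd300lf and B4galt4 (0.94) for Cd300lg. Fcgr2b had the weakest neighbours, with Fam46a at 0.84, Gnb2 and then Fcer1g at 0.81.

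Other pairs of members were read in the same way within a class. In thinned nonclassical monocytes Fcgr2b was detected in 13.2% (7.75 to 20.6) of cells with an Fcgr4 UMI and 5.88% (3.08 to 10) of cells without. Cd300e was in 46.3% (37.2 to 55.6) and 37.3% (30.6 to 44.3), and Fcgr3 in 14.9% (9.06 to 22.5) and 16.7% (11.8 to 22.5). In basophils Fcgr2b was in 6.67% (0.818 to 22.1) of cells with an Fcgr3 UMI and 10.3% (4.24 to 20.1) of cells without. The 2 intervals overlapped in each of these pairs, and the differences were not tested.

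The same class could be compared between gates for nonclassical monocytes, Cd209a dendritic cells and cDC1. In each of these classes the 2 sets differed in markers and may not hold like cells. Only 2 markers were held by 104 of 207 LSM cDC1 and 40 of 126 in the CD122+CD49a+ library. Unthinned, Xcr1 was in 33.3% and 72.2% of them, Cadm1 in 5.8% and 45.2% and Itgae in 2.9% and 19%. Tlr3 leaned the same way, while Clec9a, Gcsam and Rab7b were in more of the LSM cells. In nonclassical monocytes 52 of 351 LSM cells and 21 of 44 others held only 2 markers. Ace was in 67.2% and 90.9% of them and Fabp4 in 53.3% and 13.6%. Adgre4 leaned as Ace did, and Treml4, Eno3 and Pglyrp1 as Fabp4 did. In Cd209a dendritic cells the counts were 301 of 733 and 70 of 113. Cd7 was in 55.7% and 23% and Mgl2 in 16.6% and 33.6%. Clec10a leaned as Mgl2 did, and Cd209a, Tnip3 and Ltb4r1 as Cd7 did. The gate is confounded with the library and with depth, since 52.1% of CD122+CD49a+ cells and 3.51% of LSM cells lay below 1500 UMIs. Scaling mattered here: TMM normalisation lowered the log2 ratios of all genes by 0.69, 0.56 and 0.32 in these classes, and took the median over all genes tested from 0.24 to -0.45, from 0.34 to -0.22 and from -0.01 to -0.33. Fcgr2b was higher in the CD122+CD49a+ library in each class and under both scalings, 4.94-fold (3.96 to 6.12) in Cd209a dendritic cells, 4.75-fold (2.72 to 7.95) in nonclassical monocytes and 2.54-fold (1.65 to 3.87) in cDC1, and its log2 ratios under TMM were 1.75, 1.55 and 1.02.

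In Cd209a dendritic cells 5 of 8 tested members were higher in the CD122+CD49a+ library, where 26.9% of genes were: Fcgr3 10.2-fold (6.48 to 15.8), Fcgr4 7.53-fold (3.46 to 15.5), Fcgr2b, Cd300lf 3.34-fold (1.43 to 6.92) and Fcgr1 2.06-fold (1.03 to 3.77), the last at a log2 ratio of 0.49 under TMM. All 4 Fc gamma receptors were among them, while the inhibitory share of that family lay within counting error of the LSM value. Members higher numbered 3 with 3 markers required. Cd300c was lower at 0.15 (0.0181 to 0.55), with 2 UMIs against 217, where 9.81% of genes were lower, and with 3 markers required its log2 ratio was -0.56. Cd300a was at 0.599 (0.441 to 0.796), passing 2-fold under TMM with a log2 ratio of -1.30, and Cd300lg at 0.977 (0.512 to 1.71).

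In nonclassical monocytes 1 of 7 tested members, Fcgr2b, was higher by 2-fold, where 21.6% of genes were, and 1, Cd300e, was lower, at 0.406 (0.184 to 0.781), where 13.3% were. Fcgr4 at 1.41 (0.924 to 2.09), Fcgr3 at 1.25 (0.582 to 2.37) and Cd300ld at 1.13 (0.636 to 1.88) lay within counting error of 1, and under TMM their log2 ratios were -0.19, -0.38 and -0.51. The sparse Fcgr1 and Cd300lf, with 2 and 1 UMIs in the CD122+CD49a+ cells, turned below 1 as well. In cDC1 Fcgr2b was the 1 of 4 tested members that was higher, where 16.7% of genes were. Cd300a at 0.277 (0.135 to 0.509) and Cd300lg at 0.151 (0.00368 to 0.922) were lower, where 14.2% were.

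Genes outside the families also differed between the gates within these classes, and their part in the members' ratios was not tested. Ptprc, which encodes CD45, was 2.68-fold (2.22 to 3.22), 4.41-fold (3.89 to 4.99) and 2.88-fold (2.42 to 3.42) above its LSM level in nonclassical monocytes, Cd209a dendritic cells and cDC1, and Inpp5d 2.25-fold, 3.37-fold and 3.81-fold. Fcer1g was at 0.627 (0.547 to 0.716), 1.04 (0.962 to 1.13) and 0.371 (0.299 to 0.457), and Tyrobp at 0.881, 1.1 and 0.987.

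**Figure D4:**
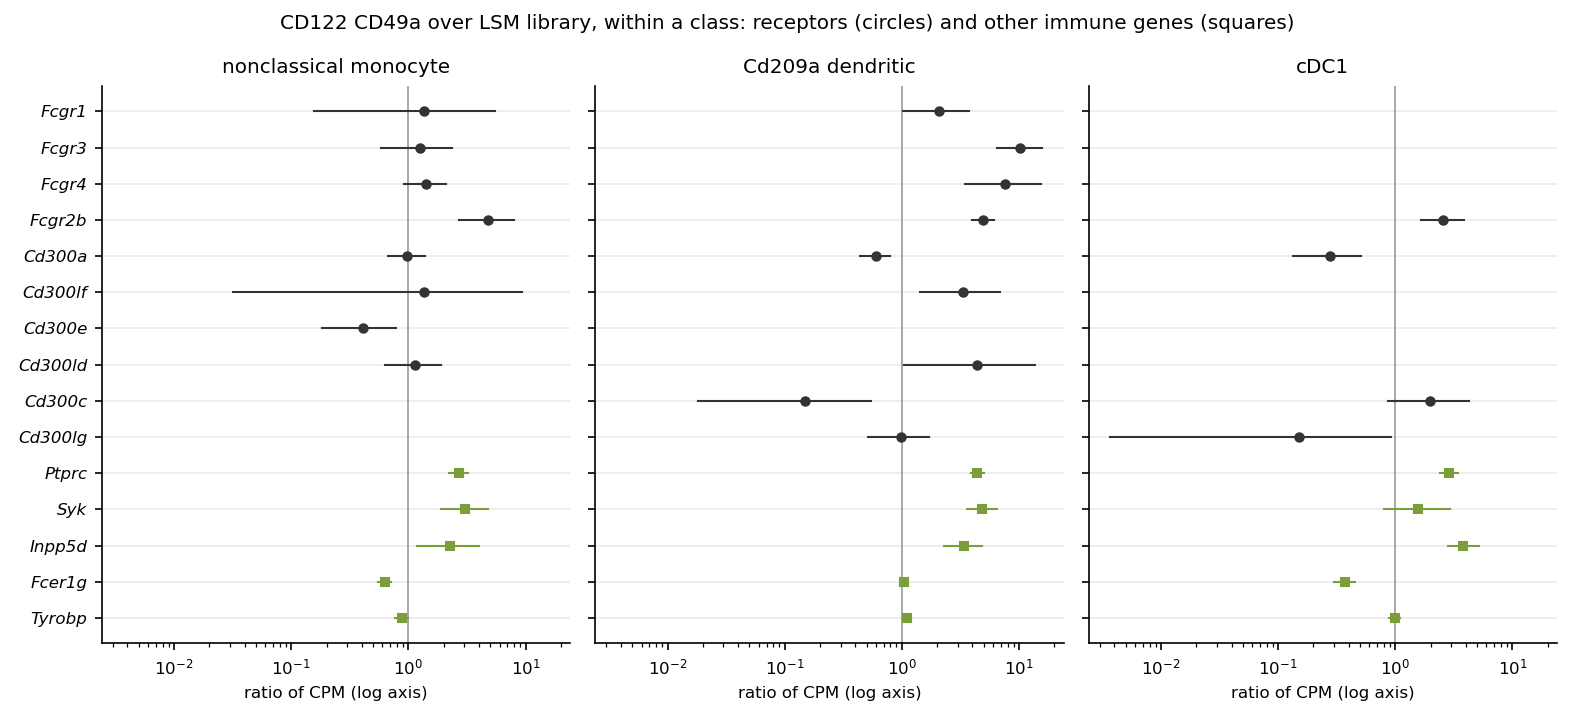
Ratio of CPM in the CD122+CD49a+ over the LSM library within 3 classes (log axis, line at 1), for the members (circles) and 5 other immune genes (squares), with exact 95% intervals; members whose ratio could not be given are not drawn. Fcgr2b lies right of 1 in all 3 panels (4.75, 4.94 and 2.54), as does Ptprc (2.68, 4.41 and 2.88), while Cd300e in monocytes (0.406) and Cd300a in cDC1 (0.277) lie to the left.

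In the T and innate lymphocytes of the CD122+CD49a+ library, the bulk of that gate, the members were near 0. Fcgr3, known from natural killer cells, gave 9 UMIs in 721 cells, 8.09 CPM (3.7 to 15.4), and Fcgr2b gave 8, 7.2 CPM (3.11 to 14.2). Fcgr1, Fcgr4, Cd300c and Cd300ld gave none (each up to 3.32 CPM). The 15 C1q macrophages of this library held Fcgr2b at 601 CPM (381 to 901) and Fcgr3 at 339 (181 to 580). They were not set against the Kupffer cells of the LSM library, where Clec4f, Vsig4, Timd4 and Cd5l were each detected, though in a minority of cells.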

How the data were processed

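Per the file headers, the authors deposited matrices of whole-number UMI counts per gene and cell, written by software version 3.0.1. Per the submitters' processing notes, the tools and build were STAR, Seurat 2.3.0 and GRCm38, their roles unstated. The sources used here do not give how barcodes were chosen, the strand setting or the treatment of reads shared by paralogs. The LSM library held 3133 barcodes and 16226070 UMIs, and the CD122+CD49a+ library 1655 barcodes and 2632303 UMIs. Among kept cells 2 barcodes were in both libraries.

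Counts were summed per library and class and scaled to a common total (CPM). Doublets were not removed in the values given. Classes came from marker lists (107 genes, 16 classes). Levels carry exact Poisson, shares exact Clopper-Pearson and ratios exact conditional 95% intervals. They cover counting error only. For ratios against 0, the class at 0 was given 3 UMIs. Ratios were computed for all genes with 20 or more UMIs in the 2 classes together, and 2-fold was called, in classes of 50 or more cells (40 between gates). To compare shares, cells were thinned to 1500 UMIs and shallower cells left out, in numbers that differ by library. Similar genes were found on log2(CPM + 5) among genes with 100 or more UMIs, leaving out members, class markers, ribosomal and mitochondrial genes. All 10 members are named, and other genes come from 6 lists (50 of their genes had a row) and the 3 most similar genes of a member; the genes most similar to Fcgr1 are not reported here. Members, lists and markers were chosen with earlier results of these data known, and the Ccr7 and Kupffer comparisons after the levels were seen.

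Alternatives were gene minimums of 300 and 1000, at most 10% mitochondrial UMIs, doublet removal (Scrublet at 0.8% per 1000 barcodes and cells with markers of 2 classes), 3 markers per class, classes by summed UMIs, the mean of each cell's CPM, scaling without mitochondrial and ribosomal genes, thinning, 100 UMIs per ratio and TMM factors. Python 3.11.15, scipy 1.17.1, scanpy 1.11.5 and edgeR 4.0.16 (TMM only) in R 4.3.3 were used. Positions come from GENCODE on GRCm38. On simulated Poisson counts of 8475 genes for nonclassical monocytes over Cd209a dendritic cells, the intervals covered 96.5% of unchanged, 97% of 2-fold and 96% of 4-fold changed genes. Such counts follow the model that the intervals assume. The coverage therefore cannot show how the intervals fare with variation between cells, mice or libraries.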

Additional observations from a re-analysis of the deposited data

Results flagged for a closer look

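Barcodes below 500 genes, which no comparison used, also held UMIs of the 10 genes. The 59 such barcodes of the LSM library held 34, or 874 CPM (605 to 1222) against 379 in the kept cells. The 398 of the CD122+CD49a+ library held 130, or 463 CPM (387 to 550) against 337. Cd300a gave 10 of the 34 and Fcgr2b 48 of the 130, the most of any member in each library.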

How the results depend on the processing

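No paired analysis was possible because each gate is 1 library. For Cd300c, the log2 ratio of plasmacytoid over Cd209a dendritic cells was 2.89, and 2.36 without doublets, 3.48 with 3 markers and 2.53 under TMM. The Fcgr2b ratio between gates in Cd209a dendritic cells was 4.94, and its log2 was 1.75 under TMM. The inhibitory Cd300 share of Cd209a dendritic cells was 85.3%, and 87.1% without doublets and 88.5% with 3 markers. That of plasmacytoid cells was 25.7%, and 31.6% without doublets, where 39 of 213 cells were left, and 19.8% thinned. The inhibitory Fc gamma receptor share of LSM Cd209a dendritic cells was 67.6%, and 76.4% thinned. That of CD122+CD49a+ nonclassical monocytes was 33.3%, and 68.8% at 1000 or more genes and 50% thinned, with 10 and 19 cells left. The cause was not tested. No member with 20 or more UMIs in a comparison that was called 2-fold or more changed direction under any setting run. Of the counts of members, those lower in plasmacytoid than in Cd209a dendritic cells went from 6 to 3 without doublets, thinned, or at 100 or more UMIs, the last by testing fewer genes. Those higher in plasmacytoid cells than in cDC1 went from 2 to 1 under the same settings. Members higher between gates in Cd209a dendritic cells went from 5 to 3 with 3 markers or thinned and to 2 at 100 or more UMIs. Over all values and settings, 3034 kept within counting error of the value given and 321 did not. Depth limits the CD122+CD49a+ library most: 1 UMI is a larger share of its smaller classes, and 3 UMIs equal 1.28 CPM over its cells against 0.185 in the LSM library.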
